A study of Rattus norvegicus with 16 samples.

Results

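Hearts of neferine-treated spontaneously hypertensive rats (SHR) were compared with hearts of Wistar Kyoto rats (WKY), using 11 of the 16 libraries of the series. The 6 treated SHR were dosed by gavage with 10 mg/kg of neferine a day for 10 weeks, and the 5 WKY received double distilled water for the same 10 weeks. A further 5 SHR given the same water were left out of every fit unless stated and are shown beside the results for reference. Age and sex are not given in the sources used here. Groups were taken from the titles. The labels of the treated rats carry a treatment field for water and a further one for neferine, and their titles and descriptions name neferine.

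SHR is an inbred strain that develops high blood pressure and a thickened, fibrotic heart, and WKY is the normotensive strain usually set beside it. Neferine is a bisbenzylisoquinoline alkaloid of the lotus seed embryo. Treated SHR differ from WKY in both strain and treatment, so a difference here holds the strain difference as it stands after treatment, and the parts due to strain and to neferine cannot be told apart within these 11 libraries. Libraries depleted of ribosomal RNA keep transcripts with and without a poly(A) tail, and assembly from such reads yields many transcripts outside the annotation. A gene can give several transcripts through alternative promoters, splicing and polyadenylation, and a strain can differ in which of them it makes without a difference in their sum.

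Each library was deposited as one normalised abundance value per transcript, called its value here, and no read counts were used, which leaves the depth of sequencing unknown. Identifiers are either those of Ensembl rat transcripts (ENSRNOT) or those of transcripts the authors assembled (MERGE, a locus number, then the number of the transcript). Neither the files nor the reference table pairs an identifier with a gene symbol (0 matched), so no gene name or function can be given, and the defining markers of heart cell types could not be looked up. The WKY files listed 32924 transcripts and the neferine files 32598, with 31042 in both. Of the latter, 21707 were tested (9973 Ensembl and 11734 assembled), namely those at 1 or more in 5 or more of the 11 libraries. In whole heart tissue, fewer cells of a type and less RNA per cell cannot be told apart. A WKY library had a summed value between 556993 and 663148, and a neferine library between 611853 and 636768.

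The first principal component of the 11 libraries accounted for 20.3% of the variance and set the 5 WKY apart from the 6 neferine libraries. The second held 11.7% and divided each group: WKY 1, WKY 3 and neferine 4, 5 and 6 lay on one side, and WKY 4, 5 and 6 and neferine 1, 2 and 3 on the other. Within each group the division follows the animal numbers of the titles, with 1 to 3 apart from 4 to 6. The order is opposite in the 2 groups, so low WKY numbers lie with high neferine numbers. No label states what the numbers stand for, and the source of the division was not tested. The division crosses the groups, so the comparison was also made on either side alone.

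**Figure D1:**
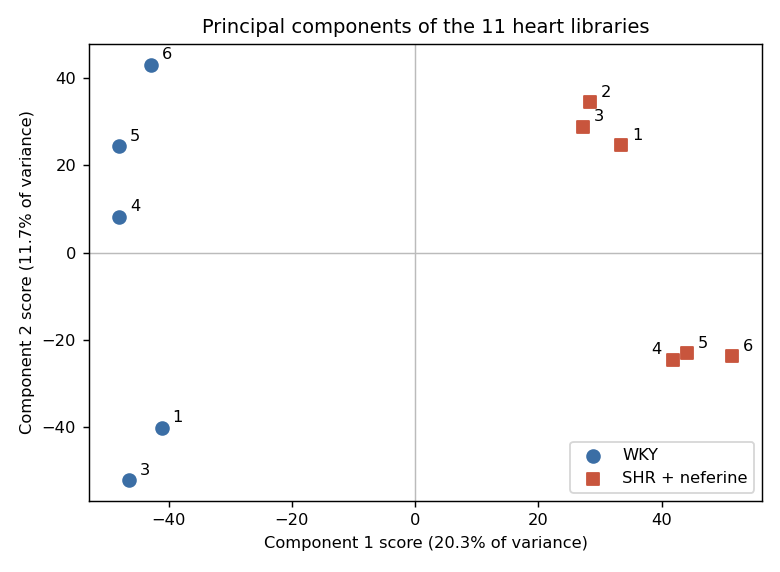
Scores of the 5 WKY libraries (circles) and 6 neferine-treated SHR libraries (squares) on the first 2 principal components of log2(value + 1) over the 21707 tested transcripts, with the animal number beside each point. The groups separate along component 1, which holds 20.3% of the variance, and either group is divided along component 2, which holds 11.7%.

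Which transcripts differed between treated SHR and WKY was tested with limma, a linear model with moderated variances, on log2(value + 1) over all 21707 transcripts. At a Benjamini-Hochberg adjusted p under 0.05, 844 transcripts differed, or 3.89% of the 21707. Treated SHR had the higher value for 516 (2.38%) and the lower value for 328 (1.51%). At an unadjusted p under 0.05, 3441 passed. The median absolute log2 fold change was 1.09 among the called transcripts and 0.21 among all tested. The values of the 5 WKY and 6 neferine libraries did not overlap for 745 of the 844, whereas the groups did not overlap for 5.2% of all tested transcripts. The larger differences were mostly rises: 125 called transcripts had a log2 fold change of 2 or more (0.576% of those tested), and 39 of -2 or less (0.18%).

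Many of the rises were in transcripts near absent in WKY. Of the 516 higher transcripts, 208 had a WKY mean under 0.5, while 20 of the 328 lower ones had a neferine mean under 0.5. The tested transcripts held 322 with a WKY mean under 0.5 and 55 with a neferine mean under 0.5. The filter was uneven here. A transcript at 0 in every neferine library had to reach 1 in every WKY library. A transcript at 0 in every WKY library did not need every neferine library to reach 1. The counts 208 and 20 therefore cannot be compared as they stand. Among transcripts with a mean of at least 0.5 in both groups, 520 of 21330 were called at the same threshold, and 51.7% of these were higher in treated SHR, against 61.1% in the full set. The deposited rows had been filtered on group means, and 1882 transcripts of the WKY and water-treated SHR files have no row in the neferine files, 93 of them at 1 or more in every WKY library. Transcripts made by WKY alone could therefore be missing from the rows that can be compared.

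On either side of the second principal component alone the comparison gave fewer calls. Fewer calls follow from the smaller number of libraries alone, and the sides were set from these same data. The counts therefore do not show whether the differences depend on the side. Calls lost on a side, as given below, carry the same limit. WKY 1 and 3 against neferine 4, 5 and 6 gave 407 limma calls, of which 222 were among the 844. WKY 4, 5 and 6 against neferine 1, 2 and 3 gave 404, of which 311 were among the 844. Omitting WKY 1 and WKY 3 gave 573 transcripts called by limma, 475 of them among the 844, and the lower calls numbered 194. Without WKY 4 alone there were 209 lower calls, 119 of them assembled transcripts.

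Ensembl and assembled transcripts are given separately. Among Ensembl transcripts 338 of 9973 were called (3.39%), 194 higher (1.95%) and 144 lower (1.44%), with a median absolute log2 fold change of 0.78 among those called. Among assembled transcripts 506 of 11734 were called (4.31%), 322 higher (2.74%) and 184 lower (1.57%), with a median of 1.3. Changes of 1 or more on the log2 scale made up 125 of the 338 Ensembl calls (1.25% of those tested) and 330 of the 506 assembled calls (2.81%). Over all tested transcripts the median absolute log2 fold change was 0.18 for Ensembl and 0.23 for assembled ones, and the median standard errors were 0.162 and 0.253, so assembled transcripts were measured less precisely. The part of this precision in the larger called changes was not tested. The 95% confidence interval of the fold change of value + 1 lay within 2-fold in either direction for 77.3% of tested Ensembl transcripts and 58.5% of assembled ones. Within assembled transcripts, those with a mean of at least 0.5 in both groups gave 256 calls, 46.1% of them higher and the rest lower. The Ensembl calls numbered 219 without WKY 4 (129 higher and 90 lower) and 207 with WKY 1 and WKY 3 omitted (128 and 79). Without WKY 5 they were evenly divided, with 124 higher and 125 lower. There were 123 higher ones without neferine 5 and 88 lower ones without WKY 1.

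**Figure D2:**
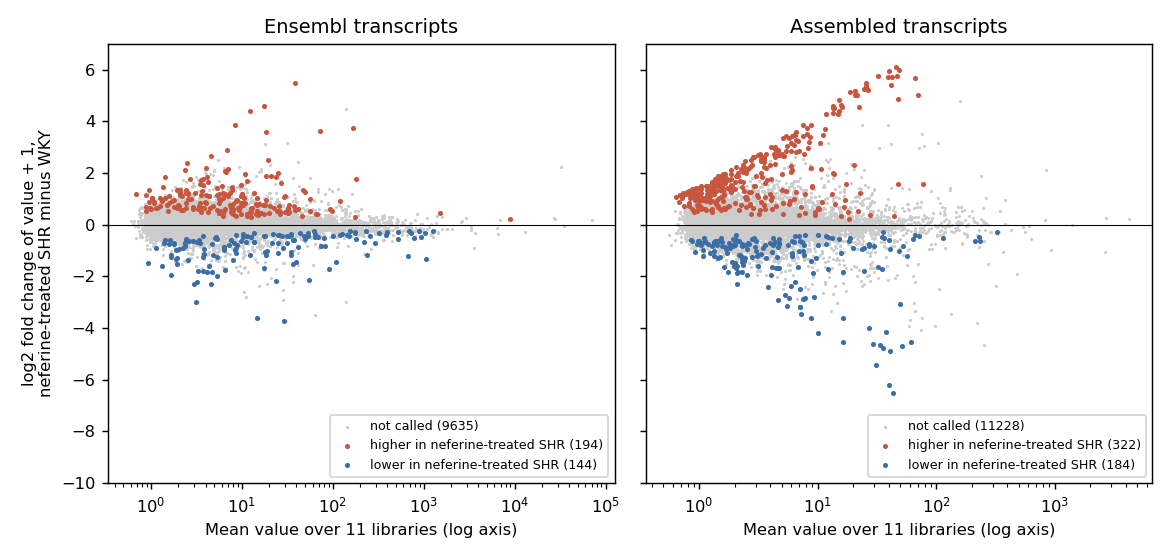
Log2 fold change of value + 1 in neferine-treated SHR minus WKY (vertical axis) against the mean value over the 11 libraries (horizontal, log axis) for 9973 Ensembl transcripts (left) and 11734 assembled transcripts (right). Each point is a transcript, with limma calls at an adjusted p under 0.05 coloured by direction. Many higher assembled transcripts lie along the upper edge, where WKY values are near 0.

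Called transcripts are given by abundance class. Below a mean value of 2, 3.14% of 7197 tested transcripts were called, 167 higher (2.32%) and 59 lower (0.82%) in treated SHR. Between 2 and 5, 3.2% were called, 127 higher (1.91%) and 86 lower (1.29%). Between 5 and 20, 4.57% were called, 156 higher (2.99%) and 82 lower (1.57%). Rises outnumbered falls in these 3 classes, as they did in all 11 fits without a single library. The falls in them numbered 38, 51 and 54 without WKY 4, and between 2 and 5 and between 5 and 20 they numbered 54 and 52 without WKY 1. The fits without a single library keep the same uneven filter, so they do not test its part in the excess of rises. With means of at least 0.5 in both groups, 269 transcripts were higher and 251 lower over all classes. Of the assembled ones, 118 were higher and 138 lower. Between 20 and 100 the share was 6.23%, with 60 higher (2.92%) and 68 lower (3.31%). The order of these 2 counts was not stable, since higher calls outnumbered lower ones after omitting WKY 1 and WKY 3 (57 and 44) and in 7 of the 11 fits without a single library: WKY 1 (53 and 49), WKY 3 (56 and 51), WKY 4 (50 and 47), neferine 1 (56 and 50), neferine 2 (60 and 55), neferine 3 (66 and 65) and neferine 4 (53 and 51). At 100 and over it was 6.58% of 593, with 6 higher (1.01%) and 33 lower (5.56%).

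Most falls among the most abundant transcripts were small. The 33 falls had a median log2 fold change of -0.4, and 4 of them, all Ensembl transcripts, were at least 2-fold. In that class the 39 called transcripts had a median absolute log2 fold change of 0.42, and 34 of them were Ensembl transcripts, 6 higher and 28 lower. Over all 593 transcripts of the class the median log2 fold change was -0.07. The count of falls changed with the libraries used: omitting WKY 1 and WKY 3 gave 8 higher and 13 lower, with a median of 0.03 over the class. With the side of the second component as a covariate the counts were 22 and 65, and with libraries scaled by their median of ratios they were 5 and 37. Without any one library in turn the falls ranged from 17 (without neferine 1 or 4) to 36 (without WKY 6), and there were 18, 18, 19 and 21 without WKY 1, WKY 3, WKY 4 and neferine 5.

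**Figure D3:**
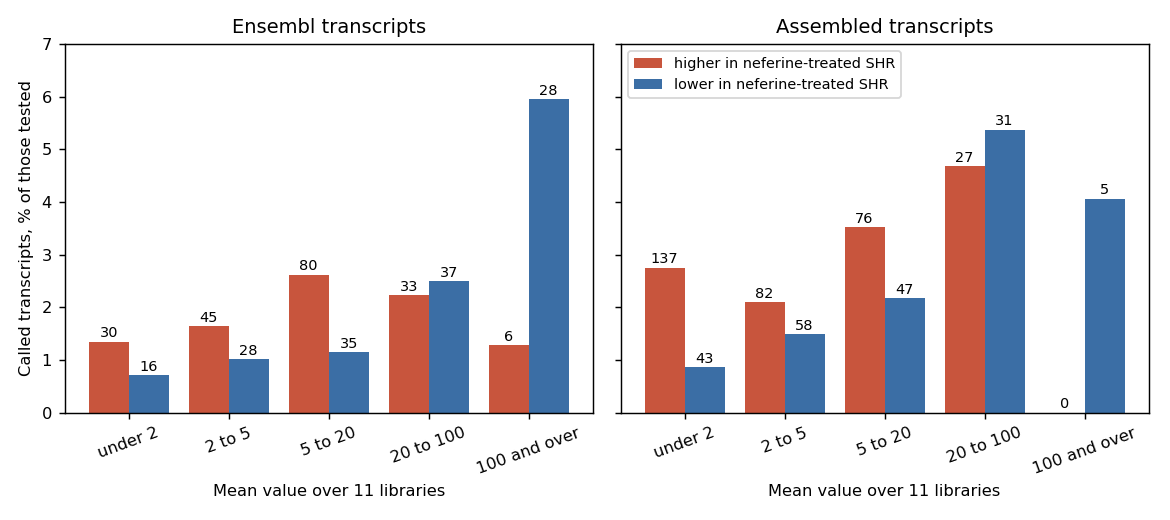
Percent of tested transcripts called by limma at an adjusted p under 0.05 (vertical axis) in 5 classes of mean value over the 11 libraries (horizontal axis), for Ensembl (left) and assembled transcripts (right), with the number called above each bar. Rises outnumber falls below a mean of 20, and falls outnumber rises at 100 and over (28 against 6 Ensembl transcripts, 5 against 0 assembled ones). The rises include transcripts near 0 in WKY, which the filter admits more easily than those near 0 in neferine libraries.

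The called transcripts held a small part of each library. Outside the 50 most abundant transcripts, those called higher held between 0.682% and 0.78% of the summed value of a WKY library and between 2.24% and 2.5% of a neferine library. Those called lower held 5.25% to 5.51% in WKY and 3.14% to 3.69% in neferine libraries. These separations follow from the choice of the transcripts and are given as a description. In the water-treated SHR libraries, which took no part in the choice, the transcripts called higher held between 1.9% and 2.34% and those called lower between 3.61% and 3.84%. For both sets the water-treated SHR values lay outside the WKY range. The WKY libraries were part of the choice, so their range is not free of it. With the 50 most abundant transcripts included, those called higher held 1.69% to 2.21% in WKY, 2.9% to 3.2% in neferine and 2.82% to 3.42% in water-treated SHR libraries. Those called lower then held 3.29% to 3.84%, 2.21% to 2.4% and 2.18% to 2.62%.

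A small set of transcripts was present in one group and listed at 0 in the other. In total 22 transcripts were at 1 or more in every neferine library and listed at 0 in every WKY library, 3 of them Ensembl and 19 assembled. Their neferine means ran from 1.26 to 58.8 with a median of 3.21. The opposite held for 3 transcripts, and all 3 came from a single assembled locus, MERGE.14292, described below. All 22 were called by limma, and 2 of the 3. MERGE.14292.85 was not called (limma adjusted p 0.155). It had a value of 116 in WKY 3 and 1.47 to 2.41 in the other WKY libraries. The 93 transcripts at 1 or more in every WKY library that have no row in the neferine files have no known neferine value, so the numbers 22 and 3 cannot be compared as they stand.

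The Ensembl transcript with the largest rise among those whose groups did not overlap was ENSRNOT00000004702. Its values in WKY 1, 3, 4, 5 and 6 were 0.494, 0.455, 0.546, 0.763 and 0.554, and in neferine 1 to 6 they were 73.3, 57.2, 72.9, 69.5, 73.3 and 74.1. The transcript was near absent in all WKY hearts and present at a similar level in all treated hearts, and the groups were far from overlapping. The log2 fold change was 5.5 (SE 0.0911, limma adjusted p 2.21e-11). Of the water-treated SHR, animals 2, 3, 4 and 6 had values of 60.2, 74.3, 74.4 and 69.9, but SHR 1 had 0.423 and so lay below all 5 WKY libraries. The labels of SHR 1 conflict: the description names WKY, and the title and the other fields name SHR. At the other transcripts and locus sums listed here, SHR 1 lay within or near the range of the other water-treated SHR.

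ENSRNOT00000033253 had the largest fall among Ensembl transcripts whose groups did not overlap. Its values were 70.7, 70.6, 54.3, 52.4 and 50.8 in WKY 1, 3, 4, 5 and 6 and 2.99, 3.63, 2.98, 3.17, 4.05 and 4.34 in neferine 1 to 6. Every WKY library was more than 10 times as high as any treated library, and the log2 fold change was -3.74 (SE 0.127, limma adjusted p 5.36e-09). The water-treated SHR libraries had values of 2.62 to 5.68, all close to the treated ones.

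Among assembled transcripts at least 2-fold apart and without overlap, the most abundant riser was MERGE.359.1, the single shared transcript of its locus. WKY values were 2.15, 3.03, 3.27, 3.11 and 3.4, and neferine values were 138, 140, 120, 123, 130 and 115. All 6 treated libraries lay in a narrow band far above WKY (log2 fold change 5.02, SE 0.0981, limma adjusted p 3.82e-11). The water-treated SHR libraries had values of 128, 116, 101, 101 and 163, so they overlapped the treated libraries and not WKY.

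The most abundant faller by the same rule, MERGE.5947.58, behaved differently. Its values in WKY 1, 3, 4, 5 and 6 were 78.2, 76, 120, 100 and 232. In neferine 1, 2, 3 and 6 they were 3.2, 20.1, 50.1 and 1.76, and it was listed at 0 in neferine 4 and 5. The treated libraries spread from 0 to 50.1, yet none reached the lowest WKY value. Water-treated SHR had values of 79.3 to 157 (104 ± 31.6, SD, n = 5), within the WKY range, so the treated libraries alone stood apart here. The log2 fold change was -4.54 (SE 0.986, limma adjusted p 0.0269). The call was lost without any one of the 5 WKY libraries or of neferine 1, 4, 5 or 6, at limma adjusted p values of 0.0531 to 0.0661, with WKY 1 and 3 both omitted (0.103), with a pseudocount of 0.1 (0.0797), and on the side of the second component that holds WKY 4 to 6 (0.296). Its locus holds 51 shared transcripts, of which 42 were tested and 9 were called, all 9 lower. The sum of the locus was not called (log2 fold change -1.46, limma adjusted p 0.223). Set against the sum of the other transcripts of its locus, MERGE.5947.58 was not called either (log2 difference -3.11, SE 1.17, limma adjusted p 0.399).

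**Figure D4:**
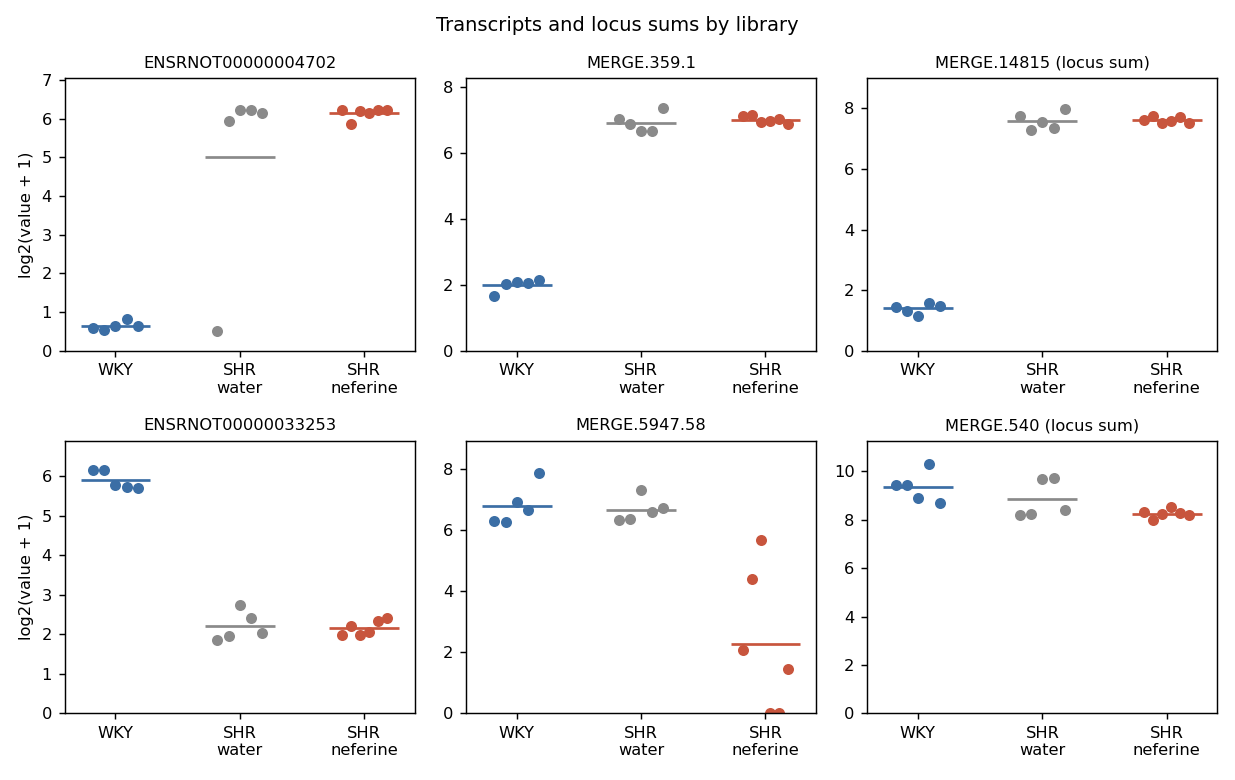
Log2(value + 1) of 4 transcripts and 2 locus sums in 5 WKY, 5 water-treated SHR and 6 neferine-treated SHR libraries. Points are libraries and lines are group means on this scale. Water-treated SHR lie with treated SHR for MERGE.359.1, MERGE.14815 and ENSRNOT00000033253, 1 of them lies with WKY for ENSRNOT00000004702, and all 5 lie with WKY for MERGE.5947.58.

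Whether whole loci differed was tested on the sum of all shared assembled transcripts of a locus. By limma, at an adjusted p under 0.05, 497 of 7955 locus sums were called (6.25%), 332 higher (4.17%) and 165 lower (2.07%) in treated SHR. The median absolute log2 fold change was 0.98 among called sums and 0.19 among all sums. The median standard error was 0.175 over all sums and 0.253 over single assembled transcripts, but 4351 of the 7955 sums are of 1 transcript. For sums of 2 or more shared transcripts it was 0.186. Assembled transcripts that were the only tested one of their locus had 0.187, and those in loci of 2 to 4 tested ones had 0.31. Loci with a single shared transcript were called at 7.65% (333 of 4351) and loci with 2 or more at 4.55% (164 of 3604). Of the 497 called sums, 131 belonged to loci in which no single transcript was called. These include some loci of 1 shared transcript, where the sum is the transcript itself. There the 2 tests differ only in the variance trend and in the adjustment, made over 7955 sums or 21707 transcripts.

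MERGE.14815 had the most abundant sum among the called loci of 2 or more transcripts that were at least 2-fold higher in treated SHR. The sum was 1.73, 1.51, 1.21, 1.98 and 1.79 in the WKY libraries and 196, 214, 184, 192, 210 and 183 in neferine 1 to 6. Every treated library was far above every WKY library, and the log2 fold change was 6.23 (limma adjusted p 1.77e-12, SE 0.0912). Water-treated SHR had sums of 155 to 252, around the treated values. The 3 tested transcripts of the locus were all called higher. The largest of them, MERGE.14815.1, had a mean of 1.34 in WKY and 120 in treated SHR.

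The corresponding faller was MERGE.540, with sums of 689, 692, 476, 1260 and 414 in WKY and 322, 255, 298, 364, 308 and 289 in neferine 1 to 6. The treated libraries were uniform and lower than every WKY library (log2 fold change -1.1, SE 0.242, limma adjusted p 0.0184). Water-treated SHR 1, 2 and 6 had sums of 295, 304 and 335, near the treated ones, and SHR 3 and 4 had 811 and 852, within the WKY range. None of its 3 transcripts was called by itself (0 of 3). MERGE.540.4 had the largest difference, with WKY values of 276 to 919 and neferine values of 0 to 120 (limma adjusted p 0.0988). Its values in water-treated SHR were 0 to 142, all below WKY. The high sums of SHR 3 and 4 came mainly from MERGE.540.2, at 582 and 646 there and 100 to 316 in WKY. The call on the sum was lost when WKY 1 and WKY 3 were omitted (limma adjusted p 0.112), in a fit of all 16 libraries (0.0541) and on the side of the second component that holds WKY 4 to 6 (0.357).

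Locus sums and single transcripts often gave different calls. A called transcript occurred in 442 of 7707 loci with a tested transcript. In 321 of these it was the only tested transcript of the locus. Of the 121 loci with a called transcript and others to compare, 54 also had a called sum in the same direction as a called transcript, and in 67 the sum was not called. In 32 of the 121 at least 2 transcripts were called: all were higher in 15 loci, all were lower in 3, and 14 loci held calls in both directions. The sum itself was called in 7 of these 14.

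A further test set each transcript against the sum of the others of its locus, which asks whether its share of the locus differed. By limma, with the same threshold, 82 of 6320 transcripts were called (1.3%), 45 with a higher share (0.712%) and 37 with a lower share (0.585%) in treated SHR, in 47 of 2293 loci. These differences were large, with a median absolute log2 difference of 2.61, and the median standard error over all transcripts was 0.466, so smaller shifts in share were not well resolved. Of the 185 called transcripts in loci with at least 2 tested ones, 60 were also called in share in the same direction, 3 in the opposite direction and 122 were not called in share. A called sum without a called share was the state of 59 of the 185, and a called share without a called sum of 28. Both were called in the direction of the transcript for 18, both were called but in opposite directions for 17, and neither was called for 63. In 19 loci the shares of different transcripts were called in opposite directions.

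MERGE.14292 was the most abundant locus with transcripts called in both directions. It holds 44 shared transcripts, of which 24 were tested, 6 were called higher and 6 lower. Its sum was 530, 291, 469, 479 and 396 in WKY and 330, 265, 310, 281, 295 and 263 in neferine 1 to 6. The sums overlapped between the groups, and the log2 fold change was -0.55 (SE 0.145, limma adjusted p 0.0465). The call on the sum was lost without any one library other than WKY 3 (limma adjusted p 0.0563 to 0.116), and without WKY 3 it was 0.00244. It was also lost in a fit of all 16 libraries (0.139) and on either side of the second component alone (0.392 and 0.0948).

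The transcripts below were chosen by their calls in these WKY and neferine libraries, so their shares there are a description. The 6 lower transcripts together held 41.9% to 66.5% of the locus in WKY libraries and 0.739% to 6.15% in neferine libraries. The 6 higher transcripts held 0.191% to 1.19% in WKY and 34.4% to 67% in neferine libraries. In the water-treated SHR libraries, which were not used to choose these transcripts, the lower ones held 1.99% to 12.2% and the higher ones 26.6% to 56.7%. The other 32 transcripts of the locus, 12 of them tested and not called and 20 not tested, summed to 162 to 188 in WKY, 84.9 to 189 in neferine and 85.1 to 225 in water-treated SHR libraries. These sums hide differences between single transcripts. In WKY 3, MERGE.14292.85 made up 116 of a sum of 169, and it was listed at 0 in every neferine library.

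The most abundant of the lower transcripts was MERGE.14292.23, with values of 117, 54, 124, 94.6 and 83.5 in WKY and 0 in all 6 neferine libraries. It was called lower (limma adjusted p 1.04e-09), and no fold is given against a group listed at 0. Among the water-treated SHR it was listed at 0 in 4 libraries and had a value of 15.2 in SHR 2. Its share of the locus was also called lower (limma adjusted p 2.69e-08). The most abundant of the higher transcripts, MERGE.14292.48, had values of 0.146, 0, 0.265, 0.0165 and 0 in WKY and of 62.8, 12.6, 7.91, 36.9, 7.23 and 119 in neferine 1 to 6. It was present in all treated hearts but spread widely among them (log2 fold change 4.57, SE 0.663, limma adjusted p 0.00207), and its share of the locus was called higher (limma adjusted p 0.0052). On either side of the second component alone its log2 fold change was 4.97 and 4.19. With the fewer libraries there its own call was lost (limma adjusted p 0.137 and 0.0736), as was that of its share (0.369 and 0.102).

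**Figure D5:**
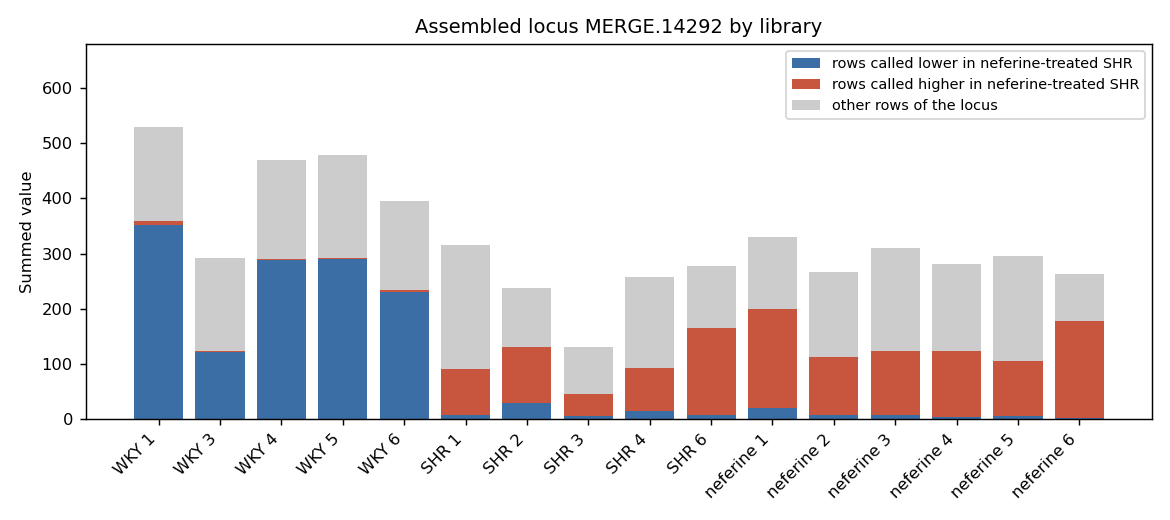
Summed value of the assembled locus MERGE.14292 (vertical axis) in each of the 16 libraries, divided into the 6 transcripts called lower, the 6 called higher and the 32 others. The lower transcripts make up 41.9% to 66.5% of the locus in WKY, and the higher ones 34.4% to 67% in neferine-treated SHR and 26.6% to 56.7% in water-treated SHR.

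The part of a library that fell on assembled transcripts was similar in the groups. It was 16%, 15.8%, 16.6%, 16% and 23.3% in the WKY libraries and 15.8% to 17.2% in the neferine libraries. WKY 6 was above all the others. The difference of means, neferine minus WKY, was -0.862 percentage points, smaller than the spread among WKY (exact permutation test over all splits, 2-sided, p = 0.874). Without WKY 6 the difference was 0.577 percentage points (exact permutation p = 0.0905).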

How the data were processed

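The authors deposited 1 file per library holding a normalised abundance signal per transcript. Its scale, the aligner, quantifier, build and annotation are not given in the sources used here, and limma is the only tool in the submitters' processing notes, with no role stated. Titles number the rats within groups, and each was taken as a separate animal, so p-values measure the spread between these samples. From the deposited values, limma 3.58.1 in R 4.3.3 (variance trend, 1 mean per group) was run on log2(value + 1) of transcripts, of sums per assembled locus, and of each transcript minus the other transcripts of its locus. Transcripts and sums had to reach 1 in 5 or more of 11 libraries. Fold changes on this scale understate changes of low values. The test was tried on simulated data. Named items were, for each direction, the Ensembl transcript with the largest fold change, the assembled transcript and locus sum of highest mean that changed at least 2-fold, and the most abundant locus with calls in both directions. Groups of a named item could not overlap, except for that last locus. The comparison and lists were chosen with earlier results of these data known. The gene lists fixed by symbol were not tested, because no identifier matched a symbol.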

Additional observations from a re-analysis of the deposited data

Results flagged for a closer look

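In 3 of 30 sets of values within a group, 1 library lay far from its neighbours, which happens by chance in about 1 set in 20. ENSRNOT00000004702 had a value of 57.2 in neferine 2 and 69.5 to 74.1 in the other 5 neferine libraries. The log2 fold change was 5.56 without neferine 2 and 5.5 with it. MERGE.5947.58 had a value of 232 in WKY 6 and 76 to 120 in the other WKY libraries. Without WKY 6 its log2 fold change was -4.27 and its limma adjusted p was 0.0642 in place of 0.0269. Assembled transcripts held 23.3% of the summed value in WKY 6 and 15.8% to 16.6% in the other WKY libraries.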

How the results depend on the processing

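Depth is unknown, so precision rests on 5 and 6 animals. In limma, transcript calls numbered 844 and ranged from 621 to 849 without each library in turn, with 588 to 724 of the 844 called again each time and 538 called every time. Ensembl calls ranged from 219 (without WKY 4) to 346, assembled calls from 402 to 503, locus sums from 402 to 480 and shares from 64 to 81. The difference in the assembled share of a library ranged from -1.29 to 0.577 and changed sign without WKY 6. At an adjusted p under 0.01 there were 438 transcripts (136 Ensembl, 302 assembled), 293 sums and 52 shares. Requiring means of at least 0.5 in both groups gave 520 transcripts, 256 of them assembled. Omitting WKY 1 and WKY 3 gave 207 Ensembl calls. The side of the second component, chosen after seeing the data, gave 519 Ensembl calls as a covariate. The side of WKY 1 and 3 alone gave 407 transcripts (147 Ensembl, 260 assembled), 235 sums and 31 shares, and the side of WKY 4, 5 and 6 gave 404 (124 Ensembl, 280 assembled), 256 sums and 39 shares, with fewer libraries in each. With the animal number as a replicate block over 10 libraries there were 313 transcripts, 82 Ensembl and 231 assembled, 272 sums and 33 shares, against 742 transcripts, 450 sums and 81 shares in the same libraries without the block. The difference in assembled share under the block was -0.854 (exact sign-flip p = 0.938). Under the block the limma adjusted p was 0.0977 for MERGE.5947.58, 0.107 for the sum of MERGE.540, 0.199 for the sum of MERGE.14292 and 0.0866 for the share of MERGE.14292.48. No shared deviation of same-numbered animals was seen: deviations of same-numbered libraries correlated at -0.0615 to 0.0114 over 5 pairs, and 0 of 10 libraries correlated best with their own number. These values cannot show whether same-numbered animals were housed or processed together. In all 5 pairs the WKY and neferine libraries lay on opposite sides of the second component, so the block joined unlike libraries. The block also fits a mean for each number, so the lower counts under it do not show whether the numbers mark pairs. A pseudocount of 0.1, no filter, median-of-ratios scaling and a fit of all 16 libraries kept the counts of called transcripts (all, Ensembl and assembled), sums and shares within 1.5 times, but the fit of all 16 libraries gave 48 higher Ensembl calls below a mean value of 2, against 30.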

Other observations

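In 6 of the 14 assembled loci with calls in both directions, every tested transcript was called. The one with the most tested transcripts, MERGE.1573, was chosen after its values were seen. Of its 7 transcripts, 3 were higher and 4 lower in treated SHR, and the groups did not overlap for any of the 7. The 3 higher transcripts held 8.81%, 7.02%, 9.11%, 4.25% and 7.28% of the locus in WKY 1, 3, 4, 5 and 6, and 92.4%, 86.3%, 92%, 84.2%, 89.4% and 86.2% in neferine 1 to 6. In water-treated SHR 1, 2, 3, 4 and 6, which took no part in the choice, they held 91.7%, 89.5%, 88.4%, 85.2% and 87.7%. The sum of the locus was 40.8 to 48.8 in WKY and 23.1 to 30 in neferine libraries (log2 fold change -0.77, limma adjusted p 0.000164).

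The share of transcripts called also varied with the number of tested transcripts in a locus. limma called 5.93% of assembled transcripts that were alone in their locus, 2.69% in loci of 2 to 4, 2.39% in loci of 5 to 9 and 9.58% in loci of 10 or more. The last class holds 261 transcripts, 25 of them called, and 21 of those 25 come from MERGE.14292 and MERGE.5947.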
